A study of Rattus norvegicus with 47 samples.

Results

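Transthyretin, encoded by Ttr (Ensembl ID ENSRNOG00000016275), was followed through RNA sequencing of prefrontal cortex from newborn rats. It is 1 of the 32883 gene IDs in the count table. The gene was chosen by its measured pattern, a few libraries with very high counts and the exposure fold changes that follow from them, so its levels and fold changes by treatment are given as a description, without a test. The pairing of the ID with the symbol Ttr comes from the rule that chose the gene. Mothers were dosed once a day during gestation, and the pups' cortex was taken on postnatal day 1. The groups were controls, for which the labels state no dose or vehicle; BFR, a daily 1000 µg of the brominated compounds EH-TBB and BEH-TEBP; OPFR, a daily 1000 µg of triphenyl phosphate plus isopropylated triphenyl phosphate; and FM550, a daily 2000 µg of the commercial FireMaster mixture that holds both kinds of compound. Each group held 6 females and 6 males, apart from OPFR with 5 females and 6 males, which gave 47 libraries of 41.1 to 73.4 M counted reads. The labels give neither rat strain nor litter, nor do they say whether animals were pooled. Since mothers were dosed, libraries of a group that come from 1 litter or 1 animal would not be independent, and each n counts libraries.

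Transthyretin is a secreted carrier of the thyroid hormone thyroxine and, together with retinol-binding protein, of vitamin A. Within the brain it is made above all by the epithelium of the choroid plexus, the tissue inside the ventricles that secretes cerebrospinal fluid, and outside the brain mainly by the liver. Hydroxylated metabolites of some brominated flame retardants are known to bind the protein in place of thyroxine. These statements are background and were not measured here.

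Ttr was close to undetected in most libraries and abundant in 3. Values are CPM, reads of the gene per M reads of all tested genes after scaling by the TMM method. The median over all 47 libraries was 0.117 CPM. In 13 libraries the gene had at most 3 reads and in 30 at most 10 reads. Above 1 CPM lay 10 libraries, and above 10 CPM lay 3: Control female 6, OPFR female 4 and OPFR female 5. The third highest of these was 4.38 times the fourth highest library, BFR male 3, so the 3 libraries stood clear of the other 44.

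The 3 libraries held most of the Ttr reads of the whole study. Of 7927 Ttr reads, Control female 6 alone held 41.7%, and together with OPFR females 4 and 5 the share came to 85.1%. Only 1184 reads were spread over the remaining 44 libraries. Control female 6 measured 66.6 CPM from 3305 reads, with a 95% exact (Clopper-Pearson) interval of 64.3 to 68.9 CPM. OPFR female 4 measured 33.2 CPM (2183 reads, interval 31.8 to 34.6) and OPFR female 5 measured 17.9 CPM (1255 reads, interval 17.0 to 19.0). These intervals cover counting error only. The highest library exceeded the median of all libraries 570 times, a gap far beyond counting error, and its total of 48.7 M reads lay inside the range of the other libraries.

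**Figure D1:**
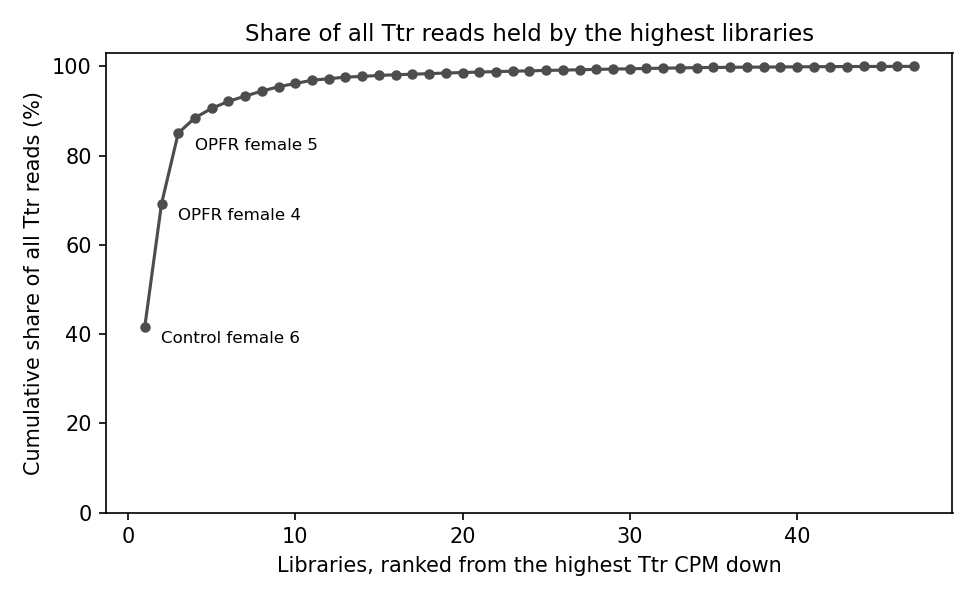
Cumulative share of all 7927 Ttr reads (vertical axis, percent) as libraries are added from the highest Ttr CPM down (horizontal axis, rank among 47 libraries). The first library holds 41.7% and the first 3 hold 85.1%, after which the curve is nearly flat.

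Control females carried both the highest library and the lowest of the study. Control females 1 to 6 measured 0.133, 0.258, 0, 0.0208, 1.42 and 66.6 CPM. Control female 3 had no Ttr read, for which the level of 3 reads is 0.0625 CPM and the upper end of the two-sided 95% exact interval 0.0768 CPM. The group mean was 11.4 ± 27.0 CPM (SD, n = 6) and the median 0.196 CPM, and 97.3% of the group's summed CPM came from replicate 6. Without that library the mean of the other 5 was 0.366 ± 0.597 CPM (SD, n = 5). The mean of the control females therefore describes 1 library and the median the other ones.

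Control males had no library of that kind. They measured 0.0359, 0.156, 0.0416, 0.0939, 0.117 and 0.0171 CPM in replicates 1 to 6, a mean of 0.0769 ± 0.0541 CPM (SD, n = 6). The whole group held 27 Ttr reads, between 1 and 10 per library. All fold changes in males are thus set against a level of few reads per library.

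BFR animals showed moderate levels spread over several libraries. BFR females 1 to 6 measured 0.0513, 1.56, 0.0175, 1.00, 0.242 and 0.412 CPM, with a mean of 0.547 ± 0.611 CPM (SD, n = 6). BFR males 1 to 6 measured 0.158, 3.15, 4.09, 1.72, 0.113 and 0.155 CPM, with a mean of 1.57 ± 1.73 CPM (SD, n = 6). Replicates 2, 3 and 4 of the BFR males lay more than 10 times above their other replicates, which sat beside the control males. In all, 5 of the 12 BFR libraries exceeded 1 CPM, as against 2 of 12 controls, 3 of 11 OPFR libraries and 0 of 12 FM550 libraries.

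OPFR females were split between 2 high and 3 low libraries. They measured 0.0873, 0.0570, 0.400, 33.2 and 17.9 CPM in replicates 1 to 5, a mean of 10.3 ± 14.9 CPM (SD, n = 5) against a median of 0.400 CPM. Replicates 1 to 3 alone had a mean of 0.181 ± 0.190 CPM (SD, n = 3). OPFR males 1 to 6 measured 0.0489, 0.0367, 0.0910, 0.220, 1.24 and 0.0908 CPM, a mean of 0.288 ± 0.471 CPM (SD, n = 6), of which replicate 5 held 71.8%. The titles number the libraries in sequence, and the 3 highest OPFR libraries (females 4 and 5 and male 5) are numbers 32, 34 and 33. Numbers 31 and 35, OPFR males 4 and 6, measured 0.220 and 0.0908 CPM. Other treatments also had high libraries at nearby numbers. The BFR libraries above 1 CPM are numbers 15, 16, 17, 19 and 21, while numbers 18 and 20 measured 0.0175 and 0.113 CPM. The controls above 1 CPM are numbers 10 and 12, while number 11 measured 0.0171 CPM. The labels name no batch or date, so a run of numbers and the animals in it cannot be told apart.

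FM550 libraries were uniformly low with 1 exception. FM550 females 1 to 6 measured 0.142, 0.0851, 0.0405, 0.114, 0.146 and 0.0209 CPM, a mean of 0.0916 ± 0.0524 CPM (SD, n = 6). FM550 males 1 to 6 measured 0.0950, 0.0952, 0.879, 0.148, 0.0306 and 0.106 CPM, a mean of 0.226 ± 0.322 CPM (SD, n = 6). Replicate 3 held 64.9% of the FM550 males' summed level. FM550 females had no library above 0.146 CPM, and their range lay within that of the control females.

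**Figure D2:**
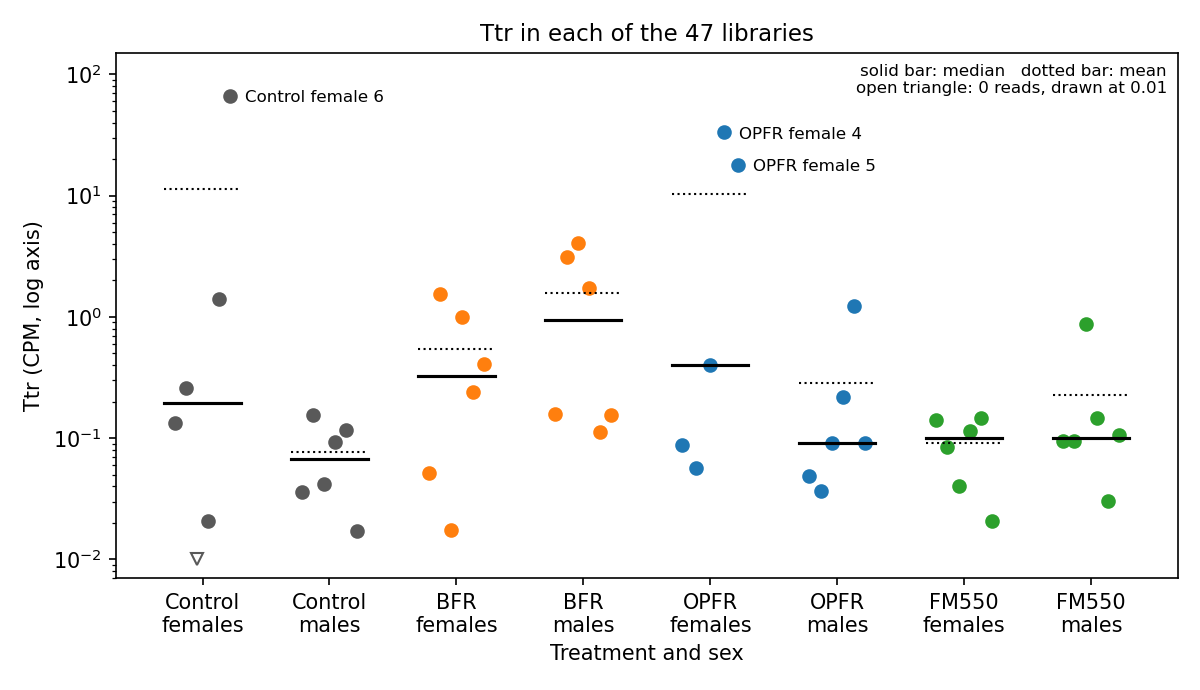
Ttr level (CPM, log axis) in each of the 47 libraries by treatment and sex. Solid bars are group medians, dotted bars group means, and the open triangle is Control female 3 with 0 reads, drawn at 0.01. The means of the control and OPFR females (11.4 and 10.3 CPM) lie far above their medians (0.196 and 0.400 CPM), since they are set by the 3 named libraries.

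The order of the 8 groups depended on the summary used. By mean, the order from the highest down was control females, OPFR females, BFR males, BFR females, OPFR males, FM550 males, FM550 females and control males. By median, it was BFR males (0.941 CPM), OPFR females (0.400), BFR females (0.327), control females (0.196), FM550 males (0.101), FM550 females (0.0998), OPFR males (0.0909) and control males (0.0678). Under either order, each of the 7 pairs of neighbours differed in mean log2 CPM by less than the spread within the groups (the pooled SD). The ranges of all 28 pairs of groups overlapped, so no group was separated from another by its levels.

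Ttr varied far more between like-treated libraries than most genes did. The SD of its log2 CPM about the 8 group means was 2.35, against a median of 0.188 over the 17135 genes that passed the filter on low counts, and 99.9% of those genes had a smaller SD. Its biological coefficient of variation, the spread beyond counting error estimated by edgeR, was 1.42, where the value common to all genes was 0.193. The SE of each fold change below comes from the edgeR model, and leaving out 1 library moved some of these values by more than their SE.

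FM550 against control gave the most extreme fitted value, and it rested on Control female 6. In females the fitted log2 fold change (edgeR quasi-likelihood model on all genes) was -6.89 ± 1.61 (SE; 6 against 6 libraries). Without Control female 6 it was -2.00 ± 1.34 (SE), and leaving out any other single library of the 2 groups moved it by less than a factor of 1.5. The log2 ratio of the group medians was -0.97. In males the fitted value had the opposite sign, 1.51 ± 1.76 (SE), and was 0.25 ± 2.07 (SE) without FM550 male 3. With a term for the libraries titled 1 to 7, described with the BFR males, the male value was -2.51 ± 2.75 (SE). Without those libraries, which left 1 control male, the male value was 3.58, so the 2 ways of treating the run moved it in opposite directions. Averaged over both sexes, FM550 against control gave -2.69 ± 1.30 (SE), -0.25 ± 1.00 (SE) without Control female 6, and -4.85 ± 1.66 (SE) with the term. The size of both the female and the averaged value thus depended on 1 of the 12 control libraries.

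BFR against control gave fitted values of opposite sign in the sexes. In females the log2 fold change was -4.38 ± 1.33 (SE), and without Control female 6 it was 0.53 ± 1.14 (SE), on the other side of 0. The log2 ratio of medians in females was 0.74. In males the log2 fold change was 4.28 ± 1.58 (SE), and it stayed between 3.70 and 4.62 when each of the 12 libraries was left out in turn. Each such fit kept most of the high BFR males, replicates 2, 3 and 4 at 3.15, 4.09 and 1.72 CPM. A fit without these replicates together was not run. The log2 ratio of medians in males was 3.80, and 4 of 6 BFR males lay above every control male, 1 of them by 0.158 against 0.156 CPM. The BFR male median of 0.941 CPM lay in the gap between its nearest libraries, at 0.158 and 1.72 CPM. Averaged over the sexes the 2 values cancelled to -0.05. The SE computed for it, 1.53, is not a reliable error, because its formula is unstable near 0. With 1 library left out, that SE ran from 0.669 to 22.6, and in DESeq2 the SE was 0.892. The average was 2.40 ± 0.86 (SE) without Control female 6 and -2.21 ± 1.53 (SE) with a term for the libraries titled 1 to 7. Its sign changed in 9 of the 24 fits that left out 1 library. In the male comparison, 5 of the 6 controls carry title numbers 1 to 7. The run also holds Control females 1 and 2 and no exposed library, so a term for it is estimated among controls alone. That term is shared by both sexes. Control female 6, at 66.6 CPM, is 1 of the controls outside the run, so it enters the male values of all exposures fitted with the term. For 390 of 17135 genes (2.28%), not Ttr among them, the log2 CPM of those 7 libraries did not overlap with that of the other 40. With a term for that run the male value was 0.26 ± 2.34 (SE), and without those libraries, with 1 control male left, 6.35 ± 4.52 (SE). Ttr itself lay between 0.0359 and 0.258 CPM in the 7 libraries of the run, with a median of 0.117 CPM that equalled the median of all libraries.

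OPFR against control in females set 2 high libraries against 1. The fitted log2 fold change was -0.14 ± 1.18 (SE; 5 against 6 libraries). It was 4.78 ± 1.25 (SE) without Control female 6, -5.89 ± 1.80 (SE) without OPFR females 4 and 5, and -1.01 ± 1.24 (SE) without all 3. A value near 0 over all libraries was therefore the balance of high libraries on both sides. In males the log2 fold change was 1.90 ± 1.73 (SE), and 0.33 ± 2.08 (SE) without OPFR male 5. With the term for numbers 1 to 7 it was -2.12 ± 2.74 (SE), and without those libraries, which left 1 control male, it was 3.97. Averaged over the sexes it was 0.88 ± 1.05 (SE). This average was 3.33 ± 0.89 (SE) without Control female 6, 0.11 ± 1.17 (SE) without OPFR male 5, -2.00 ± 1.18 (SE) without OPFR females 4 and 5, and -1.28 ± 1.57 (SE) with the term, so it lay on either side of 0. The 3 exposures share these control libraries, so 1 control library entered all 3 female comparisons at once.

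**Figure D3:**
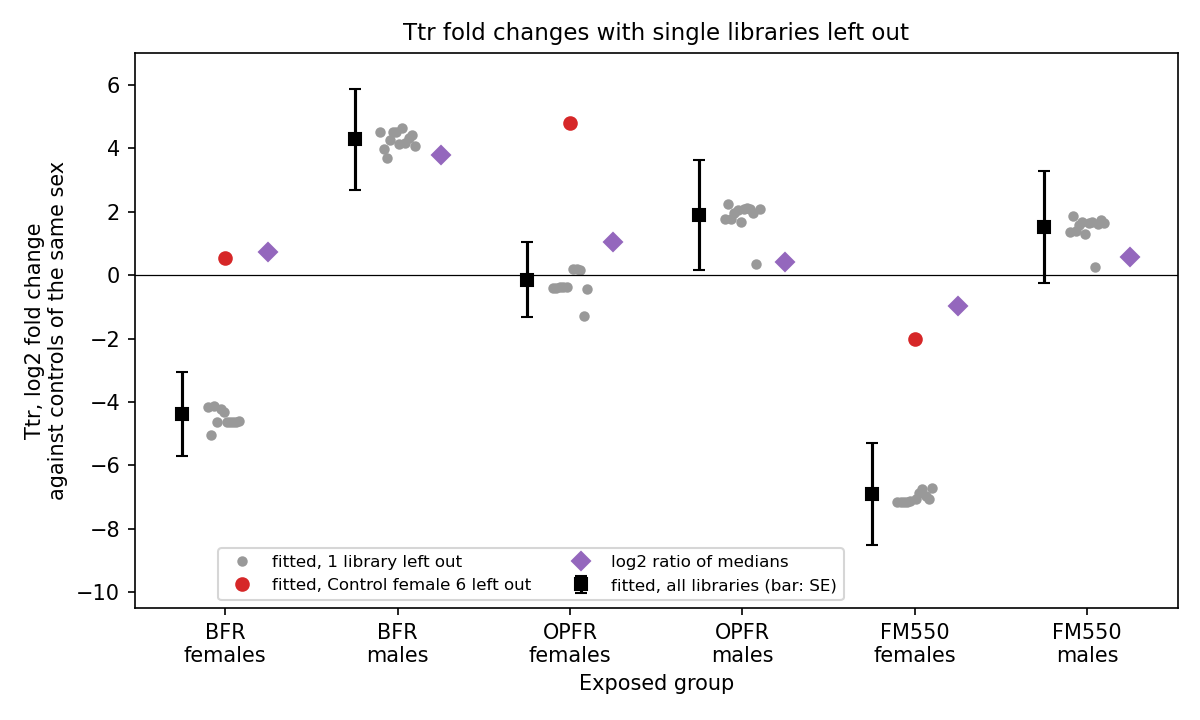
Ttr log2 fold change of each exposed group against controls of the same sex. Black squares are the fitted values with their SE, grey points the fits with 1 library left out, red points those without Control female 6, and purple diamonds the log2 ratios of group medians. In females the red points lie at 0.53, 4.78 and -2.00, far from the fitted -4.38, -0.14 and -6.89. In males no drawn point lies below 0. Fits with the term for libraries titled 1 to 7 are not drawn, and there OPFR and FM550 males gave -2.12 and -2.51.

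The sex labels were not used in choosing the gene, and sex was tested. The gene was chosen for its few high libraries, however, and these enter the test, so the test is not independent of that choice. Ttr measured 5.39 ± 15.4 CPM in females (SD, n = 23; median 0.142) and 0.539 ± 1.05 CPM in males (SD, n = 24; median 0.110), and all 3 highest libraries were female. Averaged over the 4 treatments, the log2 difference of females minus males was 2.36 ± 0.79 (SE), with an edgeR adjusted p of 0.999 and an unadjusted p of 0.00456 from the model across all genes. The difference was not called. In that comparison 22 of 17135 genes were called, or 0.128%. Without Control female 6 and OPFR females 4 and 5 the difference was -0.30 ± 0.55 (SE), with females lower.

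The 3 high libraries differed in how many other genes stood high. A gene was counted as standing high in a library when its log2 CPM exceeded the median of the other libraries more than 8-fold. Of the 17134 tested genes other than Ttr, 231 stood high in OPFR female 4 and 150 in OPFR female 5. These were the 2 largest counts of the study, and 122 genes were in both lists. In Control female 6 only 12 further genes stood high, against a median of 12 over the 47 libraries. Of these 12, 10 were in the list of OPFR female 4 and 11 in that of OPFR female 5, and 1 was in neither. Ttr thus stood out with a small set of genes in Control female 6 and with a far larger one in OPFR females 4 and 5. ENSRNOG00000047673, singled out after its values were seen, is 1 gene of the larger set. It measured 757 and 1645 CPM in OPFR females 4 and 5 and 0.705 CPM in Control female 6, against a median of 1.30 CPM. The gene was not high in that pair alone. It measured 263 CPM in Control female 4, 225 in BFR female 5, 213 in BFR male 3 and 195 in BFR male 5. Ttr in these libraries was 0.0208, 0.242, 4.09 and 0.113 CPM.

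Likeness to Ttr was measured as Pearson's r of log2 CPM over the 47 libraries, which share their library depth and composition with Ttr. It was at least 0.7 for 27 genes and reached 0.863. All but 1 of these 27 had an average log2 CPM below 1. The 2 most alike among genes at or above that level were ENSRNOG00000011823 (r = 0.76) and ENSRNOG00000032941 (r = 0.69), and the 2 at the other end were ENSRNOG00000052080 (r = -0.62) and ENSRNOG00000049351 (r = -0.62). ENSRNOG00000011823 measured 34.9 CPM in OPFR female 4, 20.3 in OPFR female 5 and 12.7 in BFR male 3, with 7.49 CPM in Control female 6 and a median of 5.24. ENSRNOG00000032941 measured 26.3, 21.6 and 10.9 CPM in the same 3 libraries, and 6.06 CPM in Control female 6 against a median of 3.49. ENSRNOG00000052080 was lowest in OPFR female 4, at 503 CPM against a median of 811 CPM.

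The likeness was carried in part by the high libraries. Without the 2 libraries farthest from the median of Ttr (Control female 6 and OPFR female 4), 18 of the 27 genes had an r of at least 0.7, and the median r of the 27 was 0.71. Without all 3 high libraries their median r was 0.62, with a range of 0.43 to 0.76. By Spearman's rho, which uses ranks, the 27 genes lay between 0.34 and 0.67. The 27 genes were chosen on r over all 47 libraries, so these values are not independent of that choice.

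The ratio of Ttr to these genes was not constant between libraries, and it was highest in Control female 6. The summed level of the 27 genes was 38.7 CPM in Control female 6, where Ttr was 66.6 CPM, and 215 and 119 CPM in OPFR females 4 and 5, where Ttr was 33.2 and 17.9 CPM. The ratio of Ttr to that sum was 1.72 in Control female 6 and 0.154 and 0.151 in OPFR females 4 and 5, an 11.2-fold gap between the first and the second. In the other 44 libraries the ratio was at most 0.0866, and its median over all 47 libraries was 0.00992. Ttr was chosen for its few high libraries and the 27 genes for their r to it over the same libraries. The gap to the other 44 libraries is therefore not independent of that choice. The sum was never below 9.10 CPM (median 11.8), so in libraries low in Ttr the ratio mostly follows Ttr itself. All 27 genes had their highest level in OPFR female 4. Of the 27 genes, 22 stood over 8-fold high in OPFR female 4, 18 in OPFR female 5 and 7 in Control female 6. These libraries were among those on which the 27 genes were chosen, so such counts follow in part from the choice.

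**Figure D4:**
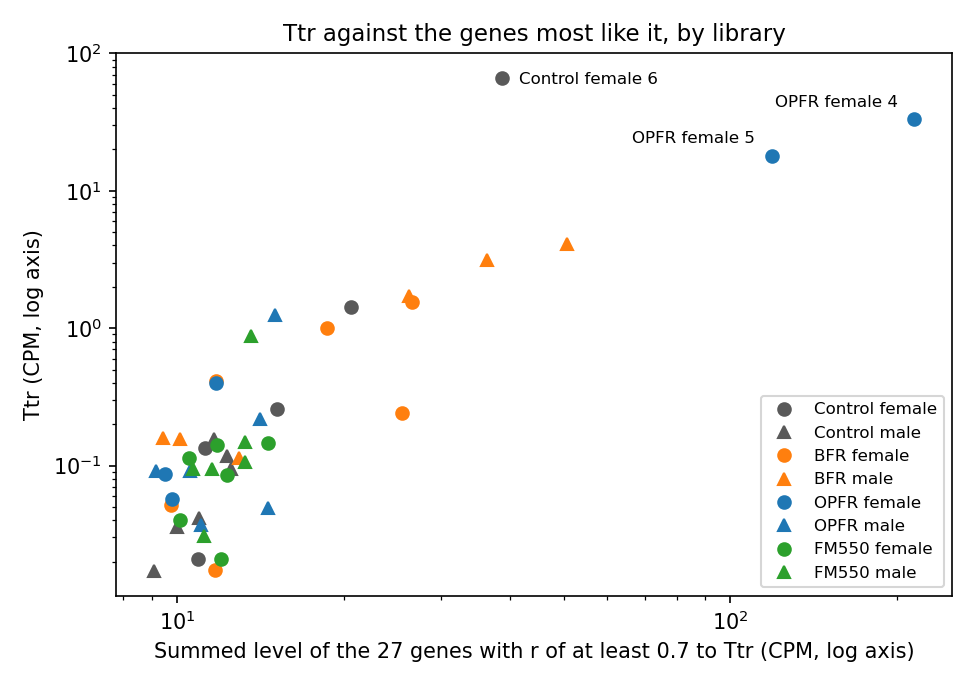
Ttr level (vertical, CPM, log axis) against the summed level of the 27 genes most like it (horizontal, CPM, log axis), one point per library, with Control female 3 (0 reads) left out. Control female 6 lies above the trend of the other libraries, with 66.6 CPM of Ttr at a sum of 38.7 CPM, while OPFR females 4 and 5 lie at its upper right end with sums of 215 and 119 CPM.

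Whether choroid plexus was present in the high libraries was not tested. The deposited table gives Ensembl IDs only, and 0 of its 32883 IDs could be matched to a symbol in the reference table used here, so other markers of choroid plexus epithelium, ependyma, meninges or liver could not be looked up, and neither could markers of the labelled cortex. In bulk tissue, a difference in the number of cells of a type and a difference in RNA per cell cannot be told apart.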

How the data were processed

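Poly(A) RNA was made into strand-specific libraries with the NEBNext Ultra Directional kit, per the labels' protocols. The authors deposited unnormalized whole-number counts for each Ensembl gene ID, all samples in 1 table. The submitters' processing notes name FastQC, DESeq2 and featureCounts without roles. Aligner, build and counting strand were not given in the sources used here; no coordinates are printed. The table's 15 rows that name no gene held no value. Columns were matched to samples by the number in each title. Replicate numbers follow record order and pair no samples. No library was a copy of another (smallest chi-square per gene between 2 libraries 6.94, where a copy gives about 1).

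Counts were fitted across all genes with edgeR 4.0.16 (R 4.3.3): filterByExpr with the 8 treatment-and-sex groups (minimum count 10, minimum total 15) kept 17135 genes, Ttr among them; library sizes were TMM-scaled (factors 0.95 to 1.10); 1 quasi-likelihood model held a mean per group. Calls used a two-sided Benjamini-Hochberg adjusted p below 0.05. Log2 CPM used a prior count of 2. A SE is the log2 fold change divided by the root of its F statistic, which can be unstable for values near 0. The sex contrast alone was tested on simulated counts, with differences set in genes of average log2 CPM of at least 1. No gene was given a few very high libraries, so the simulation does not bear on the Ttr fold changes. The member, the gene lists and the libraries left out were chosen with earlier results of these data known. Genes were named by r to Ttr at an average log2 CPM of at least 1 (2 highest, 2 lowest). ENSRNOG00000047673 was named outside this rule, after its values were seen. The 2 gene lists (choroid plexus; thyroid hormone and retinol transport) were not run, since 0 IDs matched the reference table (GRCr8). DESeq2 1.42.0 and the other alternatives are given at the end.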

Additional observations from a re-analysis of the deposited data

Results flagged for a closer look

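In 3 of the 8 groups, 1 library lay far from the others of its group in Ttr by Dixon's criterion (gap to the nearest library as a share of the group's range, against a critical value of 0.625 for 6 libraries). Control female 6, at 66.6 CPM, had a gap share of 0.979. OPFR male 5, at 1.24 CPM, had a gap share of 0.848, and FM550 male 3, at 0.879 CPM, had a gap share of 0.862. This criterion flags about 1 in 20 groups by chance where values are normal, a rate that does not apply here: Ttr was chosen for its few high libraries and its CPM are skewed, so the flags only describe where those libraries are. The OPFR females, with both of their high libraries at 17.9 and 33.2 CPM, had a gap share of 0.460, below the critical value of 0.71 for 5 libraries, because each high library had the other as its neighbour.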

How the results depend on the processing

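A fold change was taken as moved when it shifted by more than the pooled SD of log2 CPM within the groups compared. Scaling by RLE or not at all, no filter, and DESeq2 moved no Ttr value in this sense. A fit of only the groups compared was not possible for the 3 male comparisons and for FM550 in females and over both sexes, since Ttr no longer passed the filter there. In females, BFR against control was -0.55 by means of log2 CPM, 0.74 by medians, -0.098 by trimmed means and 0.54 without the 3 high libraries (chosen after seeing the data), and FM550 was -1.98, -0.97, -2.26 and -1.99. OPFR females gave -5.89 without OPFR females 4 and 5. In males, a term for libraries 1 to 7 gave 0.26 (BFR), -2.12 (OPFR) and -2.51 (FM550), and leaving them out gave 6.35, 3.97 and 3.58; OPFR males were 0.42 by medians and 0.64 by trimmed means. FM550 over both sexes was -0.20 by medians and -0.25 without the 3 libraries, and the sex difference was -0.30 without them; its adjusted p was 0.0867 in DESeq2 and, in the edgeR fits with another setting or a library left out, never below 0.05. Leaving out 1 library gave -5.04 to 0.53 (BFR females), -1.29 to 4.78 (OPFR females), 0.33 to 2.24 (OPFR males), -7.17 to -2.00 (FM550 females), 0.25 to 1.86 (FM550 males) and -3.32 to -0.25 (FM550, both sexes). Genes with likeness of at least 0.7 numbered 27, and 0 by Spearman's rho and 6 without the 3 libraries. The cause of these shifts was not tested beyond the libraries left out. No paired analysis was possible because replicate numbers only follow record order. At most 3 reads of Ttr in 13 libraries limit what their levels can show.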

Other observations

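A high number of genes standing over 8-fold above the other libraries did not always come with Ttr. After OPFR females 4 and 5, the libraries with the most such genes were BFR female 2 with 84, BFR male 3 with 80, BFR male 5 with 77 and Control male 4 with 53, and their Ttr levels were 1.56, 4.09, 0.113 and 0.0939 CPM. BFR male 2, the fifth highest library in Ttr at 3.15 CPM, had 10 such genes.

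By treatment, with both sexes together, the median Ttr level was 0.327 CPM in BFR (n = 12), 0.105 in controls (n = 12), 0.101 in FM550 (n = 12) and 0.0910 in OPFR (n = 11), and the ranges of the 4 treatments overlapped.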
